A study of Mus musculus with 24 samples.

Results

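Naive mouse CD8+ T cells, the precursors of cytotoxic T cells, were activated in culture with or without dexamethasone (Dex), a synthetic glucocorticoid, and their RNA was compared after 3 days. The comparison sets 3 wild-type libraries cultured with Dex against 3 wild-type libraries cultured without it (Ctrl), which are 6 of the 24 libraries of the series, and were picked by their labels alone. It covers 11967 genes that passed a low-count filter out of 23366 in the count table. All cells came from C57BL/6 mice whose Nr3c1 alleles were floxed, so the wild-type (WT) controls carried floxed alleles too. WT cells had no E8i-Cre, and cKO cells carried E8i-Cre, which is driven by an enhancer of the CD8 genes and deletes Nr3c1 in the CD8 lineage. Naive cells sorted as CD8+CD62LhiCD44- from spleen and lymph nodes received 3 days of stimulation by plate-bound anti-CD3 and anti-CD28, 1 µg/ml of either antibody, and the Dex concentration was 10 nM. Each library was made from 1000 sorted cells. A later comparison in WT cells at day 9, after rest in the cytokine IL-2 and restimulation with Dex present again, serves as a reference. So does the same Dex comparison in cKO cells at day 3, and each group of both had 3 libraries. Day 3 cells had no rest in IL-2. The ages of the mice, and whether replicates are separate mice or cultures, are not given in the sources used here, and a p-value therefore reflects how far these libraries spread, which may be technical.

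Glucocorticoids act through the glucocorticoid receptor, the product of Nr3c1, which waits in the cytoplasm in a complex with chaperones. Bound by hormone it enters the nucleus, where it binds paired half-sites in DNA and activates genes, and it also restrains transcription driven by factors such as AP-1 and NF-kB. In T cells the response is best known for the loss of inflammatory cytokines. The first days after stimulation through CD3 and CD28 are when a naive CD8+ T cell grows, starts to divide and builds its cytotoxic machinery.

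Levels below are CPM, counts scaled to a fixed library size after TMM normalisation. Changes are log2 differences of Dex minus Ctrl ± SE from the quasi-likelihood F-test of edgeR. A gene is said to have risen or fallen where its p, adjusted over all 11967 genes by Benjamini-Hochberg, was under 0.05. The 6 WT day 3 libraries held between 14221883 and 16387150 estimated counts. Ribosomal Rn45s took between 10.45% and 11.54% of the counts in Ctrl and between 11.91% and 12.75% in Dex. The 11 CD8 T cell markers were all measured and summed to between 2764 and 2817 CPM of the plain library totals in Ctrl and between 2599 and 2679 in Dex. Of these 11 markers 2 rose and 3 fell, with 1 rise without Ctrl replicate 1 or Dex replicate 3 and 1 fall without Ctrl replicate 2, Dex replicate 1 or Dex replicate 3. Cd3e rose from 85.3, 95.3 and 102 CPM to 113, 113 and 116 (adjusted p = 0.0113), and did not pass without Ctrl replicate 1 (0.0652), without Dex replicate 3 (0.0515) or with all 24 libraries in 1 fit (0.0583). Cd8a had 362, 373 and 364 CPM in Ctrl and 309.7, 323 and 317 in Dex, a fall of 0.21 on the log2 scale that did not pass without Ctrl replicate 2 (adjusted p = 0.0798), Dex replicate 1 (0.0825) or Dex replicate 3 (0.0655) or with all 24 libraries in 1 fit (0.19). Of 9 B cell markers 3 were at 0, among them Pax5 and Blnk, and the list summed to 18.1 to 21.95 CPM in Ctrl and 15.38 to 18.39 in Dex, mostly from Cd79b. Of 15 myeloid markers 6 were at 0, with sums of 5.03 to 8.36 and 6.01 to 8.04. The 5 CD4 T cell markers summed to 21.56 to 22.01 and 20.41 to 22.3, with Cd4 itself at 1.01 CPM or less and Foxp3 between 4.22 and 4.67 in Ctrl and between 7.02 and 8.82 in Dex. Of that list 1 member passed, Cxcr5, which fell, at 7.07, 7.53 and 9.86 CPM in Ctrl and 3.79, 5.85 and 3.88 in Dex (adjusted p = 0.01), which did not pass without Dex replicate 1 (0.0579) or Dex replicate 3 (0.0572). Exons of Cxcr5 overlap those of Bcl9l on the opposite strand. NK cell, gamma delta T cell, and erythroid and platelet markers each summed to 1.65 CPM or less in every library. In bulk RNA fewer cells of a type and less RNA per cell cannot be told apart.

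Dex changed 1129 genes in WT cells after 3 days, which is 9.43% of those tested: 590 rose (4.93%) and 539 fell (4.5%). The changes were mostly small. Risers had a median log2 change of 0.55, a 1.46-fold rise, and a median level of 29.2 CPM in Ctrl. The genes that fell had a median of -0.38 and a median level of 79.4 CPM. At least 2-fold, 132 genes rose (1.1%) and 50 fell (0.418%). Scaled by library totals alone, the split was 506 risen and 690 fallen. Without Ctrl replicate 2 the test called 722 genes, and without Dex replicate 3 it called 691.

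The same dose gave 0 calls in cKO cells by edgeR (0.0%), with 399 genes at an unadjusted p under 0.05, 0 calls by DESeq2 and 0 by limma on FPKM. The test of the difference itself, the WT change minus the cKO change, called 353 genes (2.95%), 188 with a positive (1.57%) and 165 with a negative (1.38%) difference. Of the 590 WT risers 57.1% had a positive change in cKO cells, with a median of 0.02, and of the 539 fallers 50.7%, with a median of 0.002, against 50.2% of all genes. In cKO libraries Nr3c1 had 7.34, 8.45 and 7.42 CPM in Ctrl and 5.49, 5.91 and 8.43 in Dex, against 17.1, 18.8 and 15.2 in WT Ctrl. Whole-gene counts include exons that a Cre deletion may leave in place.

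**Figure D1:**
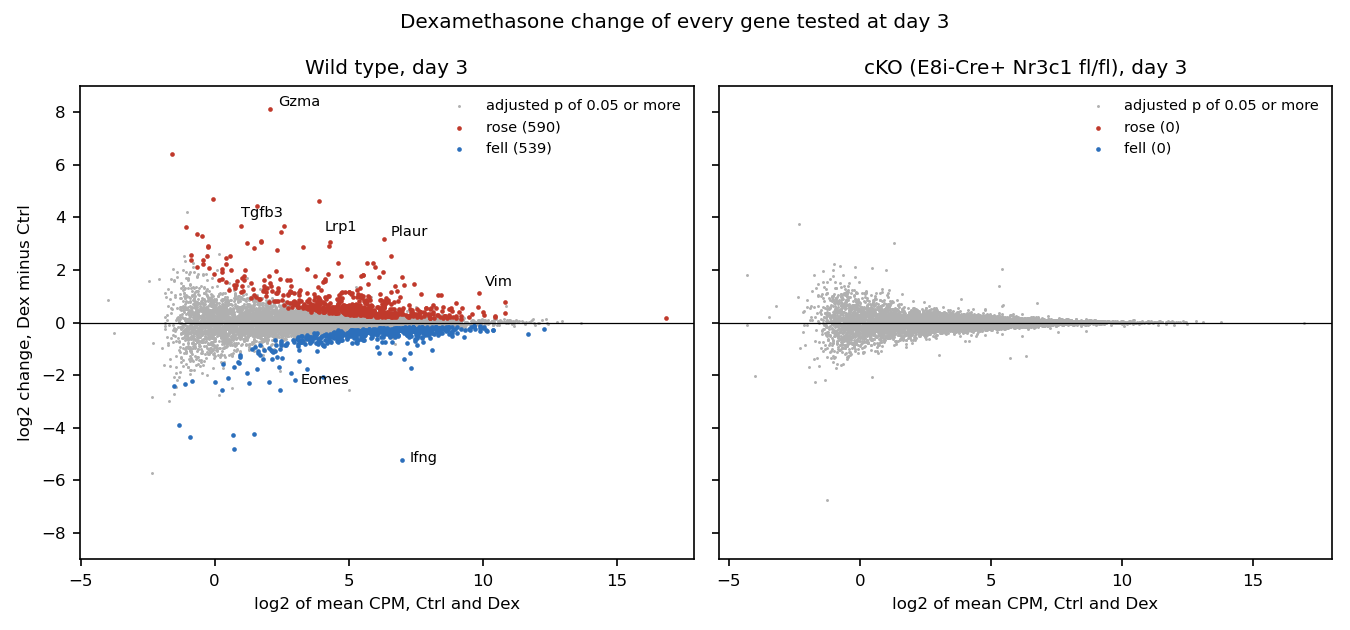
Log2 change with Dex of each of the 11967 genes tested (vertical axis) against the log2 mean CPM of both groups (horizontal axis) at day 3, in wild-type cells on the left and cKO cells on the right. Colours mark the 590 genes that rose and the 539 that fell in WT cells, and no gene of the cKO panel is coloured; a mean below 0.05 CPM is drawn at 0.05.

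Counts of list members are read against the 4.93% of all genes that rose and the 4.5% that fell, so that 1 call among 22 genes is near the share of all genes. All lists were drawn up with earlier results of these data known, so their shares are a description. Of the receptor machinery, Nr3c1 itself had 17.1, 18.8 and 15.2 CPM in Ctrl and 22.1, 20.5 and 19.9 in Dex. Its log2 change of 0.29 ± 0.14 did not pass (adjusted p = 0.239). The groups did not overlap, but that is common: in 15.1% of all genes tested the 3 Dex libraries lay above the 3 Ctrl libraries, and in 14.7% below. Of 23 tested genes of the receptor, its chaperones and cofactors 2 rose and 2 fell (8.7% each way). Fkbp5, a co-chaperone that lowers the hormone affinity of the receptor, stood at 18.9, 23.6 and 22.3 CPM in Ctrl and 44.5, 44.8 and 48.4 in Dex and rose 2.13-fold (adjusted p = 1.3e-06). Hsd11b1, the enzyme that regenerates active glucocorticoid, fell from 5.37, 3.74 and 4.34 CPM to 2.12, 1.26 and 2.35 (log2 -1.22 ± 0.28, adjusted p = 0.0103), and did not pass without Dex replicate 2 (0.0552). Without Ctrl replicate 2 or Dex replicate 1 a single member of the list rose, and without Dex replicate 2 a single member fell.

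Of 23 tested textbook glucocorticoid targets 10 rose and 0 fell, with a median log2 change of 0.50 against 0.00643 over all genes. The list was drawn up with earlier results of these data known. Tsc22d3, which encodes the anti-inflammatory leucine zipper GILZ, had 67.04, 55.9 and 54.7 CPM in Ctrl and 203, 176 and 209.8 in Dex. Every Dex library was above every Ctrl library, a 3.31-fold rise (log2 1.73 ± 0.11, adjusted p = 8.42e-09). The metallothionein genes, whose small proteins bind zinc and copper, rose more: Mt1 went from 21.5, 23.3 and 26.9 CPM to 105, 100.1 and 107 (log2 2.12 ± 0.13, adjusted p = 8.85e-09) and Mt2 from 4.32, 2.95 and 5.65 to 16.2, 16.7 and 19.8 (log2 2.04 ± 0.23, adjusted p = 1.53e-05). Of the 21 tested metallothionein and zinc transport genes these and the zinc importer gene Slc39a8 rose, and the median change of that list was 0.02. Slc39a8 did not pass without Ctrl replicate 1 (adjusted p = 0.0805), Dex replicate 1 (0.0516) or Dex replicate 3 (0.0835). Ddit4, an inhibitor of mTORC1, rose 1.96-fold (adjusted p = 1.33e-05), and the clock gene Per1 rose 1.42-fold (adjusted p = 0.000638).

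Other textbook targets did not pass or passed narrowly. Dusp1, a phosphatase that turns off MAP kinases, had 29.7, 31.6 and 28.7 CPM in Ctrl and 38.7, 33.8 and 37.3 in Dex, and its change of 0.29 ± 0.10 did not pass (adjusted p = 0.0771). Klf9, a transcription factor gene induced by glucocorticoids in many tissues, had 2.49, 1.27 and 3.03 CPM and 3.61, 4.32 and 3.18 CPM (adjusted p = 0.251), and Zbtb16 was at 0 counts in all 6 libraries. Sgk1, a kinase gene, passed narrowly at 6.09, 5.78 and 7.65 CPM in Ctrl and 10.3, 11.96 and 8.59 in Dex (log2 0.66 ± 0.20, adjusted p = 0.0428). It did not pass without Ctrl replicate 1 (adjusted p = 0.128), Ctrl replicate 2 (0.155), Dex replicate 1 (0.107) or Dex replicate 2 (0.179), and the adjusted p over all alternatives ran from 0.0117 to 0.179.

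The proximal promoters of the risers that hold a receptor-type half-site pair are shown because that pair is the element the receptor binds. The letters searched were GNACANNNTGTNC, a palindrome, so both strands are read at once, in the 300 bases from 250 before to 50 after each start in RefSeq promoters of build GRCm38.p6. Of the 23 tested target genes 22 had a promoter there, and 3 of the 22 (13.6%) held the letters, against 0.475% of all 32851 promoters and 0.345% of the tested genes with a promoter. Because the list holds textbook targets and was drawn up with earlier results known, its share is a description and no check. The share was 0.661% among risers and 0.701% among fallers, which is 3 genes each, too few for a check. Of the risers 77.0% and of the fallers 79.4% matched a promoter, against 79.99% of the tested genes. Shown are the 250 bases before the start, 5′ to 3′ on the strand of the gene, with the matched letters in capitals, for Mt1 (chr8:94178839-94179088, + strand), Sgk1 (chr10:21993640-21993889, + strand) and Txnip (chr3:96557707-96557956, + strand), a thioredoxin-binding protein gene that restrains glucose uptake. A match is a description of the letters and not a measured site.
Mt1: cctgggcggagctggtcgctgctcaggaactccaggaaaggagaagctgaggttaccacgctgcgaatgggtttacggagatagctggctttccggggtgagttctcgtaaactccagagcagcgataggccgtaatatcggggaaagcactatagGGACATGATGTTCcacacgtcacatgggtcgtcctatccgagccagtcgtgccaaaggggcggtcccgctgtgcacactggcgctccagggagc
Sgk1: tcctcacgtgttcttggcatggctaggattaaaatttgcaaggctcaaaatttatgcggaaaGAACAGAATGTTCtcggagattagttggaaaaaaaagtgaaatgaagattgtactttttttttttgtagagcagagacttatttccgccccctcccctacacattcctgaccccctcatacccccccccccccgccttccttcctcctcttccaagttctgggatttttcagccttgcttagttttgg
Txnip: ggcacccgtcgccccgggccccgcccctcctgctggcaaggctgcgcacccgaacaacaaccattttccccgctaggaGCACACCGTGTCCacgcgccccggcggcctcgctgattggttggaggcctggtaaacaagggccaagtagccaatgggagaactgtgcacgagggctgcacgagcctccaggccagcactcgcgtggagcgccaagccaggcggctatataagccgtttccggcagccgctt
Txnip, the weakest of these rises on the log2 scale, had 60.4, 62.9 and 57.5 CPM in Ctrl and 93.2, 77.8 and 94.1 in Dex (log2 0.55 ± 0.08, adjusted p = 0.000326). The cKO change of Txnip was 0.33 ± 0.08 (adjusted p above 0.05), and its difference between genotypes did not pass (adjusted p = 0.404).

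Among the largest rises were genes of the cell surface and its surroundings. Plaur encodes the urokinase receptor, which focuses plasmin formation at the cell surface and cooperates with integrins. It had 14.99, 16.99 and 15.2 CPM in Ctrl and 144, 153 and 137 in Dex, a 9.17-fold rise with the smallest adjusted p of the comparison (4.01e-13). Lrp1, an endocytic receptor of the LDL receptor family that takes up urokinase complexes, had 3.93, 4.28 and 4.48 CPM in Ctrl and 35.5, 30.5 and 39.2 in Dex. This was an 8.29-fold rise (log2 3.05 ± 0.17, adjusted p = 2.71e-09) with groups that did not overlap. Of the 14 tested genes of the urokinase system and the LDL receptor family these 2 rose and 0 fell.

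Tgfb3, a TGF-beta ligand, was low in Ctrl at 0.655, 1.02 and 0.896 CPM and had 9.83, 13.7 and 9.73 CPM in Dex. Its log2 change of 3.67 ± 0.29 (adjusted p = 1.67e-07) was the largest among the rises named here apart from Gzma, whose Ctrl counts are too few for a fold. Furin, the protease that matures TGF-beta precursors, rose 1.71-fold (adjusted p = 0.00118), and the third riser among the 26 tested genes of the pathway (11.5%) was the receptor gene Tgfbr2, with 0 members falling. With all 24 libraries in 1 fit Tgfbr2 did not pass (adjusted p = 0.064). Atp2b4, a calcium pump of the plasma membrane, had 4.32, 5.001 and 4.204 CPM in Ctrl and 31.9, 33.96 and 35.5 in Dex (log2 2.90 ± 0.14, adjusted p = 4.43e-10). Neb, the gene of the giant muscle protein nebulin, had 21.2, 23.02 and 17.7 CPM in Ctrl and 92.4, 95.4 and 108 in Dex (log2 2.25 ± 0.10, adjusted p = 1.42e-10).

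The rest of the 15 largest rises among genes with at least 10 CPM in a group lay between 1.82 and 3.45 on the log2 scale. They include the adhesion gene Amica1, which had 32.02, 32.2 and 32.9 CPM in Ctrl and 123, 121 and 120.2 in Dex, and Lama5, a laminin chain of basement membranes, at 7.398, 9.34 and 7.99 and 24.1, 34.8 and 30.03 CPM. Napsa, an aspartic protease, had 1.83, 1.87 and 3.45 and 21.3, 9.57 and 20.9 CPM, with Dex replicate 2 well below the other 2 Dex libraries. Irgc1, a GTPase of the immunity-related family, had 1.11, 0.542 and 1.17 and 9.58, 10.4 and 10.9 CPM. Ctla2a, a cysteine protease inhibitor whose reads may be shared with its close copy Ctla2b, had 20.03, 19.2 and 22.3 and 63.6, 78.96 and 74.6 CPM. AI480653 and Gm13546 rose 4.79-fold and 4.78-fold. Of 21 annexin, S100 and cytoskeleton genes 3 rose and 3 fell, with 1 rise without Ctrl replicate 2, Dex replicate 2 or Dex replicate 3 and 1 fall without Ctrl replicate 1, Dex replicate 1 or Dex replicate 3. The filament gene Vim moved from a high level, from 584, 567 and 606 CPM in Ctrl to 1226, 1304 and 1349 in Dex (2.21-fold, adjusted p = 2.13e-09).

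**Figure D2:**
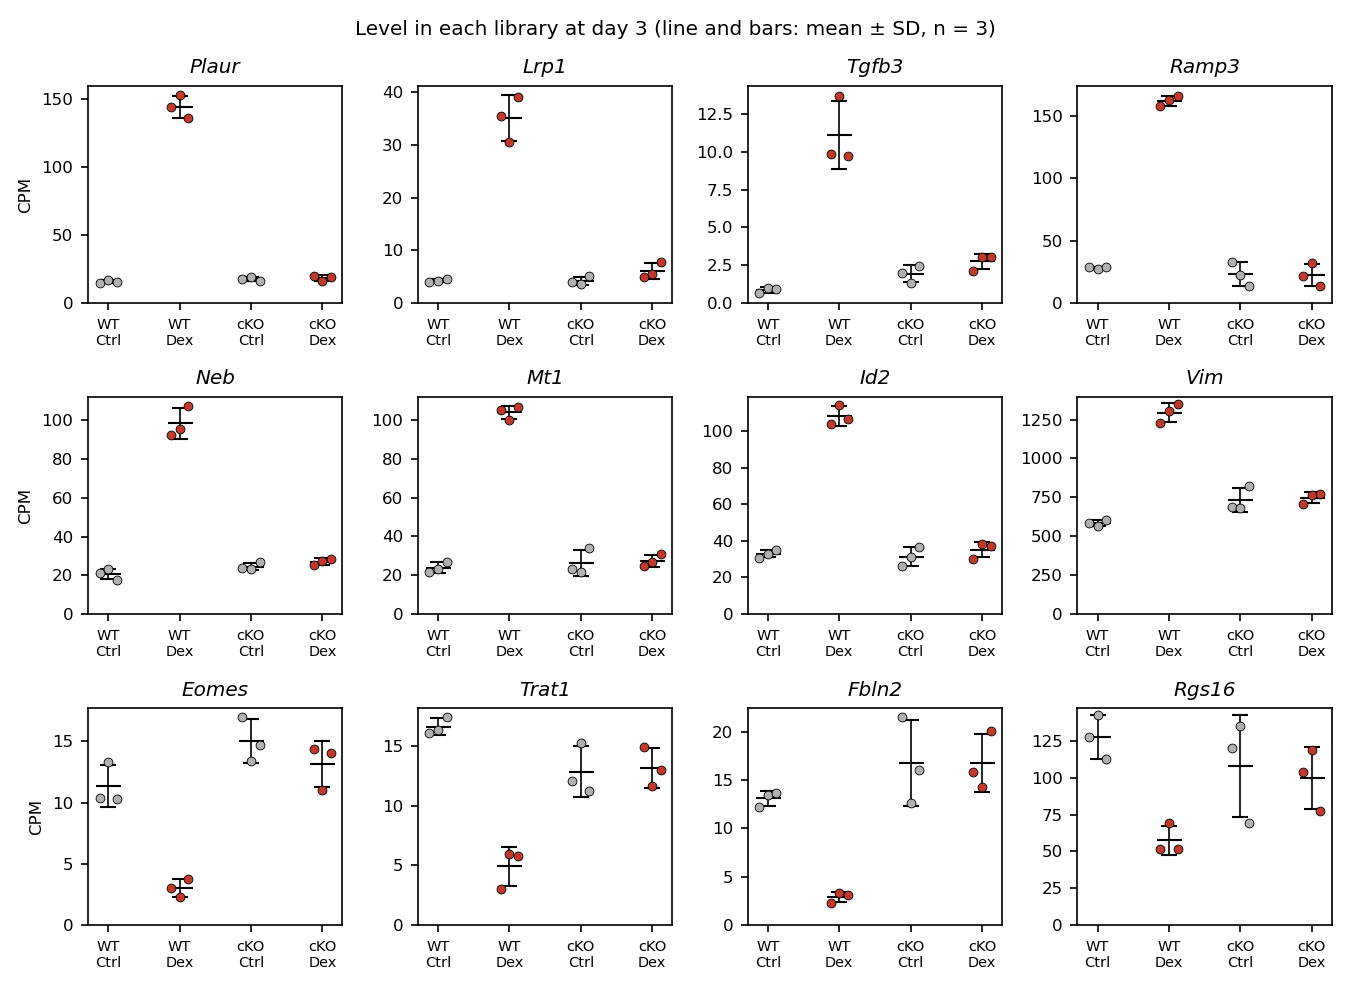
CPM of 12 named genes in each of the 12 day 3 libraries (points) with mean ± SD (n = 3) for WT Ctrl, WT Dex, cKO Ctrl and cKO Dex; each vertical axis starts at 0. The WT Dex points lie apart from the WT Ctrl points in every panel, above them from Plaur to Vim and below them from Eomes to Rgs16, for example 30.5 to 39.2 CPM against 3.93 to 4.48 for Lrp1. The genes were picked among called genes, of which 99.15% of risers and 99.44% of fallers had groups apart, so this separation follows from the choice.

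Receptors coupled to G proteins moved in both directions. Of 25 tested receptors, RAMPs (receptor activity-modifying proteins) and RGS regulators 8 rose and 4 fell. Ramp3, an accessory chain of the calcitonin-like receptor for adrenomedullin, had 28.6, 27.2 and 28.5 CPM in Ctrl and 158, 163 and 166 in Dex, a 5.76-fold rise (adjusted p = 1.32e-06). The 3 libraries of each group were within a few CPM of each other. Gpr183, which guides lymphocytes along oxysterol gradients, had 24.2, 21.3 and 28.5 and 62.4, 58.1 and 64.96 CPM (2.51-fold, adjusted p = 2.85e-07). Gpr18 had 53.5, 62.1 and 61.9 and 134, 135 and 131 CPM (2.25-fold, adjusted p = 3.76e-09), and the proton-sensing receptor gene Gpr65 rose 1.44-fold. Rgs16, which shuts off G protein signals and is induced by T cell activation, went the other way, from 128, 143 and 113 CPM to 51.5, 69.1 and 51.9 (log2 -1.15 ± 0.19, adjusted p = 0.000761). The 4 falls of this list were down to 1 without Ctrl replicate 2 and to 1 without Dex replicate 3.

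In the cAMP pathway, which dampens T cell receptor signals, 3 of 22 tested genes rose (13.6%) and 1 fell (4.55%, near the share of all genes), a fall absent without Ctrl replicate 1 or 3 or Dex replicate 1 or 2. Pde4b, a phosphodiesterase that degrades cAMP, had 55.1, 50.01 and 50.5 CPM in Ctrl and 95.9, 92.5 and 92.6 in Dex (1.805-fold, adjusted p = 2.06e-07). Crem, a cAMP-responsive transcription factor, had 112, 112 and 125 and 183, 181 and 195 CPM (1.597-fold, adjusted p = 8.16e-07). Akap13, a scaffold for protein kinase A, rose 1.28-fold (adjusted p = 0.000215). Of 23 calcium and NFAT genes 3 rose (13%) and 1 fell (4.35%), Atp2b4 with the largest change. Stim2, a sensor of calcium stores, fell from 15.3, 19.9 and 18.9 CPM to 11.9, 9.84 and 10.7 (adjusted p = 0.00349). Without Ctrl replicate 1 a single member of the calcium list rose.

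Of 36 tested genes that carry the signal of the T cell receptor 8 fell and 4 rose, with a median of -0.06. Trat1, an adaptor that stabilises the receptor at the surface, had 16.1, 16.4 and 17.5 CPM in Ctrl and 2.99, 5.98 and 5.79 in Dex, which is 0.295 of the Ctrl level (adjusted p = 1.47e-05). Lcp2, which encodes the adaptor SLP-76, fell from 287, 293 and 285 CPM to 199.5, 218 and 206 (log2 -0.47 ± 0.06, adjusted p = 4.06e-05). Ptpn22, a phosphatase that restrains the proximal kinases, rose from 224, 224 and 207 CPM to 306, 319 and 331 (log2 0.55 ± 0.05, adjusted p = 3.13e-06). With fewer libraries these counts were lower: 5 members fell without Ctrl replicate 2 or Dex replicate 1, and 2 rose without Ctrl replicate 1 or Dex replicate 3.

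Of 17 tested feedback genes of the MAP kinase pathway 4 fell and 0 rose, with a median of -0.003. Of the 17 changes 8 were positive and 9 negative. Dusp14 had 21.7, 20.97 and 21.9 CPM in Ctrl and 10.9, 13.5 and 11.1 in Dex (log2 -0.86 ± 0.12, adjusted p = 0.000141), and Dusp6, an ERK phosphatase, had 34.6, 28.5 and 25.8 and 18.8, 19.5 and 21.4 CPM (log2 -0.58 ± 0.11, adjusted p = 0.00253). The other falls were Dusp4, which did not pass without Dex replicate 3 (adjusted p = 0.0515) or with all 24 libraries in 1 fit (0.176), and Spry2, which did not pass without Ctrl replicate 1 (0.0743) or Dex replicate 2 (0.0642). Among 21 immediate early and AP-1 genes 4 rose and 3 fell. Jun, an AP-1 subunit, fell from 50.3, 64.6 and 54.4 CPM to 36.6, 34.1 and 35.7 (adjusted p = 0.000448), while Batf, the AP-1 partner of IRF4 in T cells, rose from 42.6, 40.9 and 42.9 CPM to 63.5, 54.9 and 57.7 (adjusted p = 0.00114) and Fosl2 rose from 25.1, 28.98 and 26.5 to 41.4, 43.7 and 45.6 (adjusted p = 0.000141). Those AP-1 counts were less certain: 2 rose without Dex replicate 1 or 2, and 1 fell without any of Ctrl replicates 1 and 2 and Dex replicates 1, 2 and 3.

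Of 21 NF-kB genes 4 fell (19%) and 1 rose (4.76%, near the share of all genes), with a median of -0.03. The riser was Tnip1, which holds NF-kB back, from 34.96, 39.3 and 34.7 CPM to 50.5, 45.9 and 50.3 (log2 0.43 ± 0.09, adjusted p = 0.00631). The falls were small, at most 0.30 on the log2 scale, as for the subunit gene Nfkb2 at 285, 298 and 284 CPM in Ctrl and 239, 241 and 222 in Dex (adjusted p = 0.0101, 0.0515 without Ctrl replicate 2 and 0.0634 without Dex replicate 3). They numbered 2 without Ctrl replicate 1 or Dex replicate 1, 1 without Dex replicate 2, and 0 without Ctrl replicate 2 or Dex replicate 3.

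Receptors for cytokines and their signalling genes rose in 13 of 44 cases and fell in 5, with a median of 0.09. Il7r, the receptor chain for the survival cytokine IL-7, had 83.4, 77.97 and 85.8 CPM in Ctrl and 138, 149 and 148 in Dex (1.76-fold, adjusted p = 2.48e-06). Il18r1 had 25.7, 26.03 and 29.01 and 47.5, 56.9 and 55.6 CPM (1.98-fold, adjusted p = 1.99e-05). Socs3, a feedback inhibitor of cytokine receptors, had 58.5, 54.5 and 58.9 and 110.4, 93.2 and 99.4 CPM (1.76-fold, adjusted p = 2.25e-05). Il21r fell from 329, 305 and 318 CPM to 215, 199.8 and 211 (log2 -0.60 ± 0.07, adjusted p = 1.47e-05). Without Ctrl replicate 1 or Dex replicate 1 there were 3 falls.

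Of 23 costimulatory genes 6 rose and 2 fell. Icos, a CD28 relative, had 157, 122 and 123 CPM in Ctrl and 269, 293 and 293 in Dex (2.13-fold, adjusted p = 1.79e-06). Slamf1 rose from 60.6, 67.5 and 66.4 to 97.8, 94.2 and 93.1 CPM (adjusted p = 1.99e-05), and Tnfrsf18, which encodes GITR, a receptor named for its induction by glucocorticoids, rose from 716, 661 and 684 to 833, 867 and 852 (adjusted p = 0.00116). Outside that list, the ligand gene Cd70, one of the 15 largest falls, had 20.4, 20.9 and 16.7 CPM in Ctrl and 8.27, 10.97 and 8.33 in Dex (log2 -1.08 ± 0.14, adjusted p = 5.77e-05). The 2 falls of the costimulatory list came to 1 without Ctrl replicate 1 or 2 and to 0 without Ctrl replicate 3 or any single Dex library. Cytokine and checkpoint genes changed as well, 8 of 18 cytokine and chemokine genes falling and 1 rising, and 2 of 16 checkpoint genes rising and 4 falling. Ifng fell from 243, 207 and 293 CPM to 6.91, 11.6 and 1.59, and Ctla4 rose from 233, 222 and 226 to 433, 487 and 470.5. Without Dex replicate 2 there were 2 falls among checkpoint genes, and without Ctrl replicate 2 or Dex replicate 3 no cytokine gene rose.

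**Figure D3:**
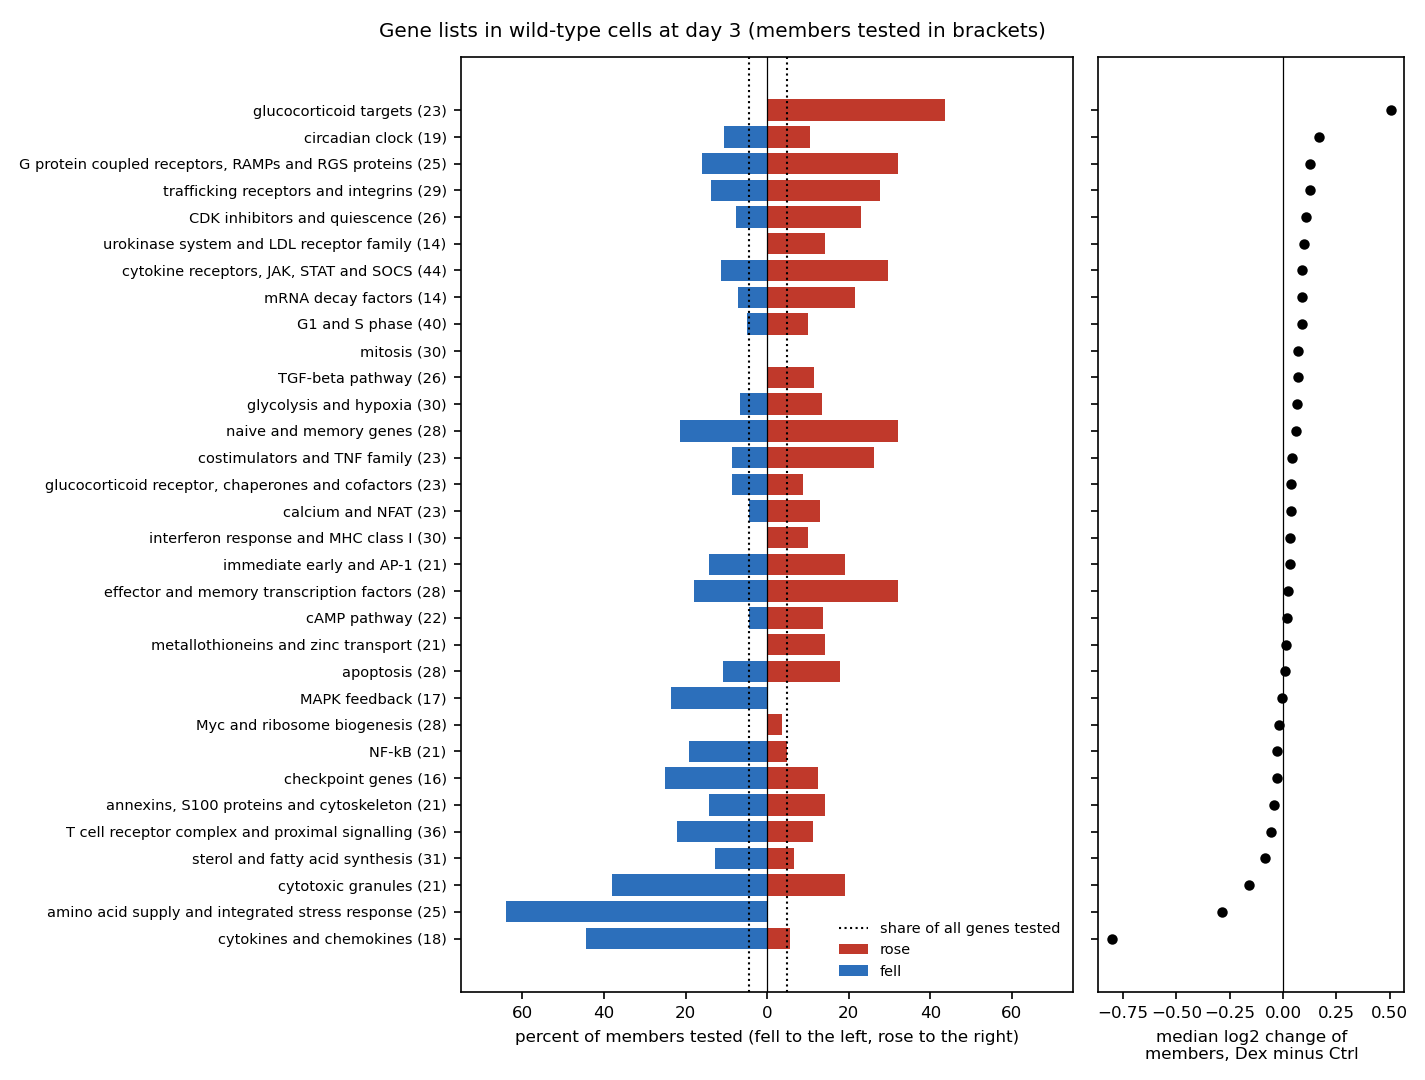
Percent of the tested members of each gene list that rose (right) or fell (left) with Dex in WT cells at day 3, with the number tested in brackets, beside the median log2 change of the members. Dotted lines mark the 4.93% and 4.5% of all genes that rose and fell; the targets, with 10 of 23 rising, stand at the top by median, and the amino acid genes, with 16 of 25 falling, near the bottom.

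Transcription factors of effector and memory cells changed in 14 of 28 cases, 9 rising and 5 falling. Id2, an inhibitor of E proteins needed for effector cells, had 30.9, 33.02 and 35.01 CPM in Ctrl and 104, 114 and 107 in Dex, a 3.29-fold rise (adjusted p = 8.73e-09). Eomes, the T-box factor of memory and cytotoxic cells, fell from 10.4, 13.3 and 10.3 CPM to 2.99, 2.33 and 3.75, which is 0.267 of Ctrl (log2 -1.90 ± 0.19, adjusted p = 3.31e-06). Hif1a, the factor of the hypoxia response, rose from 367, 379 and 409.6 CPM to 642, 661 and 650.3 (adjusted p = 1.04e-07). Nfil3, a repressor that also belongs to the clock, rose from 14.3, 17.2 and 20.5 to 31.1, 33.6 and 35.4 (adjusted p = 5.4e-05), and the clock gene Arntl fell from 12.9, 14.5 and 13.8 to 8.71, 10.3 and 8.97 (adjusted p = 0.00997). Without Ctrl replicate 2 there were 2 falls among these factors and without Dex replicate 3 there were 3. Of 19 clock genes 2 rose and 2 fell (10.5% each way), with 1 fall without Ctrl replicate 1 or Dex replicate 3.

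Genes of naive and memory cells split in a similar way, 9 of 28 rising and 6 falling. Ccr7, the homing receptor for lymph nodes, had 1486, 1302 and 1228 CPM in Ctrl and 2416, 2145 and 2403 in Dex (1.73-fold, adjusted p = 1.79e-06), and Igfbp4 had 18.99, 15.003 and 15.4 and 34.1, 36.6 and 39.8 CPM (2.24-fold, adjusted p = 2.48e-06). Ly6c2, a surface marker of effector and memory CD8+ T cells whose reads may be shared with its close copy Ly6c1, fell from 82.7, 104 and 105 CPM to 38.2, 45.7 and 45.5 (log2 -1.18 ± 0.13, adjusted p = 1.14e-05). Falls numbered 3 without Ctrl replicate 2 or Dex replicate 3. Among trafficking receptors and integrins 8 of 29 rose and 4 fell. Cd44, the hyaluronan receptor that marks activated cells, fell from 137, 130.2 and 136 CPM to 97.7, 95.2 and 91.4 (adjusted p = 2.79e-05). Ccr6 rose from 0.851, 0.603 and 0.6202 CPM to 5.72, 4.45 and 7.699 (adjusted p = 9.34e-05).

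Of 21 tested genes of cytotoxic granules and their regulators 8 fell and 4 rose, with a median of -0.16. Gzmb, the granzyme that starts apoptosis in target cells, had 3665, 3757 and 3941 CPM in Ctrl and 2690, 2744 and 2893 in Dex (log2 -0.45 ± 0.05, adjusted p = 1.37e-05). Serpinb9, the inhibitor that guards the T cell against its own granzyme B, moved the opposite way, from 499, 496 and 481 CPM to 736, 703 and 703 (log2 0.54 ± 0.06, adjusted p = 5.79e-06). Crtam, a surface protein of cytotoxic cells, fell from 105, 106 and 99.7 to 62.3, 63.5 and 58.6 CPM (adjusted p = 0.000136). Gzma held 1 count over the 3 Ctrl libraries and 391 over the 3 Dex libraries, a ratio of 380.2 with a 95% interval of 67.8 to 15050 that covers counting error only, and its adjusted p was 9.82e-06. In Dex libraries Gzma stood at 9.52, 3.72 and 11.6 CPM. Rises numbered 2 without Ctrl replicate 3 or Dex replicate 2, and falls 5 without Dex replicate 3.

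The largest falls outside these groups were in genes of varied function. Fbln2, a protein of the extracellular matrix, had 12.2, 13.5 and 13.6 CPM in Ctrl and 2.302, 3.32 and 3.05 in Dex (log2 -2.18 ± 0.21, adjusted p = 2.43e-06). Slc14a1, a urea transporter, had 11.9, 14.9 and 12.3 and 4.54, 5.32 and 4.26 CPM (log2 -1.47 ± 0.30, adjusted p = 0.00401). Dgat2, which makes triglycerides, fell from 19.2, 21.3 and 25.9 to 12.8, 10.2 and 12.5 CPM (adjusted p = 0.000405), Serpinc1, the gene of antithrombin, from 11.7, 12.2 and 11.7 to 5.85, 5.05 and 6.17 (adjusted p = 4.1e-05), and the tubulin gene Tubb2b from 20.8, 21.8 and 20.3 to 13.7, 10.5 and 10.8 (adjusted p = 0.000986). Exons of Serpinc1 overlap those of Zbtb37 on the opposite strand, and Zbtb37 changed by -0.30 on the log2 scale in WT cells. The groups did not overlap in any of the 15 largest falls, as the rule for naming them required.

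Genes that supply the cell with amino acids and belong to the integrated stress response fell in 16 of 25 cases. In this response the factor ATF4, made when amino acids run short or proteins misfold, drives enzymes of serine and asparagine synthesis, amino acid transporters, and feedback genes such as Trib3. Activated T cells depend on it for growth. Of 25 tested members 16 fell and 0 rose, against 4.5% of all genes that fell, and the list median was -0.29. This list too was drawn up with earlier results of these data known, so its share is a description and no check. The members beyond the naming rule were added because of the count of falls, after their values were seen. In the wild-type cells 22 of the 25 changes were negative, from -0.61 for Nupr1 to 0.10 for Slc1a5. In cKO cells the median of the same genes was 0.02, and the difference between genotypes passed, with a negative sign, for 8 of them.

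Asns, asparagine synthetase, had 549, 521 and 498 CPM in Ctrl and 379, 410.5 and 397 in Dex. The 3 Dex libraries lay below the 3 Ctrl libraries, with a log2 change of -0.40 ± 0.06 (adjusted p = 0.000173). Phgdh, which commits glucose carbon to serine, had 1246, 1226 and 1247 CPM in Ctrl and 996, 999 and 1021 in Dex (log2 -0.30 ± 0.04, adjusted p = 5.86e-05). Trib3, a pseudokinase that feeds back on ATF4, had 125, 127 and 123 and 85.5, 88.7 and 82.2 CPM (log2 -0.55 ± 0.07, adjusted p = 0.000106). Chac1, which degrades glutathione, had 43.01, 40.6 and 36.6 and 29.3, 27.4 and 26.7 CPM (log2 -0.53 ± 0.09, adjusted p = 0.00068). The mRNA of Atf4 itself fell modestly, from 445, 451 and 445 CPM to 348, 383 and 368 (log2 -0.29 ± 0.05, adjusted p = 0.00161).

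Further down the same pathway, Mthfd2, a mitochondrial folate enzyme, fell from 509.9, 519 and 480.1 CPM to 369, 414 and 383 (adjusted p = 0.00117). Psph, the last enzyme of serine synthesis, fell from 194, 195 and 209.6 to 164, 161 and 159 (adjusted p = 0.0028), though its exons overlap those of the abundant Cct6a on the opposite strand. Slc3a2, the heavy chain of the large neutral amino acid transporters, fell from 503, 512 and 530.5 CPM to 424, 419 and 433 (adjusted p = 0.00462). Nupr1, a stress-induced regulator, fell from 23.2, 23.1 and 23.4 to 15.9, 14.5 and 15.5 (adjusted p = 0.0109). Members that did not pass include Psat1 at 637 ± 19.4 CPM in Ctrl and 579 ± 26.9 CPM in Dex (adjusted p = 0.085), Shmt2 (adjusted p = 0.101), Aars (adjusted p = 0.756), Slc7a11 (adjusted p = 0.749) and the glutamine transporter gene Slc1a5 (adjusted p = 0.306). The log2 changes of Slc7a1, Slc38a2, Slc38a1 and Slc7a6, which did not pass either, lay between -0.18 and 0.00.

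A further 7 members fell. Cars, a tRNA synthetase gene, changed by -0.27 ± 0.05 (adjusted p = 0.000956) and Cth, which makes cysteine, by -0.40 ± 0.09 (adjusted p = 0.00818). The transporter genes Slc7a5 and Slc1a4 changed by -0.40 ± 0.09 and -0.36 ± 0.09, and the stress genes Ddit3 and Sesn2 by -0.31 ± 0.08 and -0.42 ± 0.12. Aldh18a1, an enzyme of proline synthesis, changed by -0.19 ± 0.05. The call was lost without Dex replicate 3 for Cth, without Ctrl replicate 3 or Dex replicate 1 for Slc7a5, without Ctrl replicate 1 or 2 or Dex replicate 1 for Slc1a4, and without Ctrl replicate 2 or Dex replicate 1 or 2 for Ddit3. It was lost without Ctrl replicate 1 or 3 or Dex replicate 2 or 3 for Aldh18a1, and without any WT library but Ctrl replicate 3 for Sesn2 (adjusted p between 0.0696 and 0.168). Left out 1 library at a time, between 12 and 14 members fell. Fitted with all 24 libraries 8 fell, and Nupr1 (adjusted p = 0.0921), Slc3a2 (0.0949), Cars (0.0611), Cth (0.178), Slc7a5 (0.0604), Slc1a4 (0.242), Sesn2 (0.0681) and Aldh18a1 (0.106) did not pass.

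**Figure D4:**
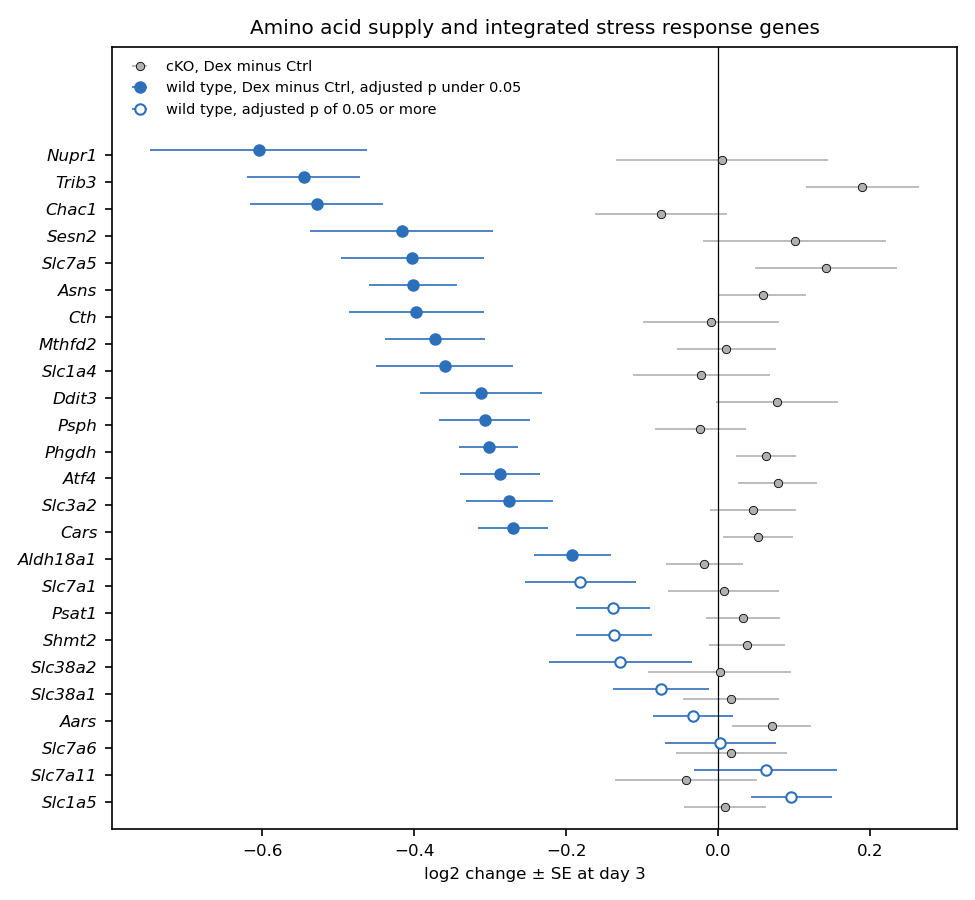
Log2 change ± SE with Dex at day 3 of the 25 tested amino acid supply and integrated stress response genes, in WT cells (blue, filled where the adjusted p was under 0.05) and in cKO cells (grey). The 16 filled points lie between -0.61 and -0.19, and the cKO points lie between -0.08 and 0.19.

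The promoters of 3 of these genes are shown for the core of the amino acid response element, the letters TGATGNAA on either strand, which ATF4 binds together with C/EBP family proteins. This motif was chosen after the falls were seen. It occurred in the 300-base promoters of 7 of the 20 list members with a RefSeq promoter (35%), against 3.97% of all 32851 promoters and 2.81% of the tested genes with a promoter. The share among the fallers was 6.08%. Of the list 80% matched a promoter, of the tested genes 79.99% and of the fallers 79.4%. Because of how the motif was chosen, its shares are a description and no check. Of the 7 genes Slc7a11 (log2 0.06) and Aars (log2 -0.03) did not pass. The 250 bases before the start are printed 5′ to 3′ on the strand of the gene, with the match in capitals, for the fallers with a match there: Asns (chr6:7693210-7693459, - strand), Chac1 (chr2:119350992-119351241, + strand) and Nupr1 (chr7:126625471-126625720, - strand), in build GRCm38.p6. In Chac1 and Nupr1 the letters are on the opposite strand and so are printed as their reverse complement. Trib3 and Slc1a4 held a match in the bases after the start only. Binding was not measured.
Asns: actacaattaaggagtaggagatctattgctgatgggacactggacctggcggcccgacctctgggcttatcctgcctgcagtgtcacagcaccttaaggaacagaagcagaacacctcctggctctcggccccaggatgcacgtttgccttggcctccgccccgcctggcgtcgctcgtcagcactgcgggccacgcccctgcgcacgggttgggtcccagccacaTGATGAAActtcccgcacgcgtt
Chac1: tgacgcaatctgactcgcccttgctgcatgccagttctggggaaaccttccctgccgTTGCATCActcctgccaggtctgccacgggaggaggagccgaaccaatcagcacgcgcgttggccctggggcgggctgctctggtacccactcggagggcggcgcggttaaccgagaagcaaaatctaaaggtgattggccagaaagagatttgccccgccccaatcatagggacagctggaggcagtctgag
Nupr1: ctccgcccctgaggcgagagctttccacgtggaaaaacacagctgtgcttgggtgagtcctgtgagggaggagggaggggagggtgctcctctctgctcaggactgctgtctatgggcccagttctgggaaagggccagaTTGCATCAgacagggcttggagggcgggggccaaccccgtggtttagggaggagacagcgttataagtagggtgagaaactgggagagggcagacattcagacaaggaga
In Asns the match began at position -23 relative to the start. The half-site pair of the receptor was found in 0 of the 20 promoters of this list.

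Of 31 sterol and fatty acid genes 4 fell (12.9%) and 2 rose (6.45%), and 23 of the 31 changes were negative. Idi1, an enzyme of isoprenoid and cholesterol synthesis, fell from 369.6, 373 and 353 CPM to 311, 298 and 274 (log2 -0.31 ± 0.07, adjusted p = 0.00581). Elovl6, which lengthens fatty acids, rose from 30.6, 31.9 and 31.4 CPM to 62.6, 53.97 and 60.8 (1.89-fold, adjusted p = 3.31e-06). Of 30 glycolysis and hypoxia genes 4 rose (13.3%) and 2 fell (6.67%), and 20 of the 30 changes were positive. Slc2a3, a glucose transporter, fell from 292, 269.9 and 266 CPM to 141, 188 and 167 (log2 -0.74 ± 0.10, adjusted p = 5.47e-05), while Ndrg1, induced by hypoxia in many cells, rose from 92.5, 83.4 and 66.3 to 158, 162 and 153 (1.95-fold, adjusted p = 1.68e-05). Sterol falls numbered 2 without Ctrl replicate 1, Ctrl replicate 3 or Dex replicate 1, and a single sterol or fatty acid gene rose without any one of the Ctrl libraries or of Dex replicates 1 and 3.

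Genes of mitosis, ribosome building and DNA replication gave different counts. Of 30 mitosis genes 0 passed by edgeR in either direction, with 5 at an unadjusted p under 0.05 and 1 passing by DESeq2, and their changes lay between -0.05 and 0.28 with a median of 0.07. Fitted with the 6 WT day 3 libraries alone, 4 of them rose. Of 28 Myc and ribosome biogenesis genes 1 rose and 0 fell, and the riser, Fbl, did not pass without Ctrl replicate 1 (adjusted p = 0.148), Ctrl replicate 2 (0.101), Dex replicate 1 (0.0775), Dex replicate 2 (0.0999) or Dex replicate 3 (0.0941). Of 40 G1 and S phase genes 4 rose (10%) and 2 fell (5%), against 4.93% and 4.5% of all genes, with 1 rising whichever WT library was left out and 1 falling without any library but Dex replicate 3. Of the 40 changes 32 were positive and 8 negative. Chaf1a, a member that rose, changed by 0.55 ± 0.11 (adjusted p = 0.00245), though its exons overlap those of Ubxn6 on the opposite strand. Ccnd3, the D cyclin of lymphocytes, fell from 435, 441 and 453 CPM to 352, 358 and 354 (log2 -0.32 ± 0.05, adjusted p = 0.000547), though its exons overlap those of Bysl on the opposite strand.

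Among 26 CDK inhibitors and quiescence genes 6 rose and 2 fell. Pik3ip1, an inhibitor of PI3 kinase, had 19.1, 19.04 and 21.4 CPM in Ctrl and 43.9, 41.5 and 47.3 in Dex (2.23-fold, adjusted p = 5.79e-06). Cdkn1a, which encodes the CDK inhibitor p21, fell from 302, 319.9 and 314 to 209.5, 251 and 254 (log2 -0.39 ± 0.07, adjusted p = 0.001). Of 28 apoptosis genes 5 rose and 3 fell. Glucocorticoids kill thymocytes largely through Bcl2l11, which encodes the death-promoting protein BIM, and here Bcl2l11 rose from 11.1, 13.7 and 12.4 CPM to 24.1, 21.7 and 29.1 (2.01-fold, adjusted p = 0.000173). The survival gene Bcl2 rose too, from 372, 339 and 363 CPM to 515, 499 and 513 (1.42-fold, adjusted p = 1.53e-05). Quiescence rises numbered 3 without Ctrl replicate 1, Ctrl replicate 2, Dex replicate 1 or Dex replicate 3, and falls 1 without any library but Ctrl replicate 2. Apoptosis rises numbered 3 without Ctrl replicate 2 or Dex replicate 3, and falls 1 without Ctrl replicate 2 or any single Dex library.

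Regulators of mRNA decay rose in 3 of 14 cases (21.4%) and fell in 1 (7.14%), which did not pass without Ctrl replicate 1 or 2 or Dex replicate 1 or 3. Zfp36l2, a protein that binds AU-rich elements and promotes decay, had 9.1, 7.59 and 9.304 CPM in Ctrl and 27.2, 24.9 and 25.4 in Dex (2.99-fold, adjusted p = 1.04e-07), and its relative Zfp36l1 had 29.7, 33.3 and 35.2 and 46.3, 47.5 and 49.5 CPM (1.46-fold, adjusted p = 0.000246). Of 30 interferon response and MHC class I genes 3 rose (10%) and 0 fell. Isg20, an interferon-induced exonuclease, rose from 19.5, 18.2 and 17.7 to 37.3, 34.9 and 34.1 CPM (adjusted p = 0.000459), and Gbp2, a guanylate-binding protein, from 62.2, 63.1 and 62.6 to 137, 90.9 and 112 (adjusted p = 0.000921), with Dex replicate 2 the lowest of its Dex libraries.

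More genes passed at day 9 than at day 3. In the fit of all 24 libraries 890 genes passed at day 3. At day 9, 7179 of 12666 genes passed with Dex in the same fit (56.7%), 3836 rising (30.3%) and 3343 falling (26.4%), and the change differed between the days for 5017 (39.6%), 2588 with a positive (20.4%) and 2429 with a negative (19.2%) difference. Of the 590 day 3 risers 69.7% also rose at day 9 and 9.32% fell. Of the 539 fallers 54.7% also fell and 17.8% rose. Among all genes of the day 3 fit 30.8% rose and 27.2% fell at day 9. Culture history and restimulation differ between the days as well, and their part was not tested.

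Genes of DNA replication and ribosome building differed between the days. At day 9, 35 of the 40 G1 and S phase genes and 26 of the 28 Myc and ribosome biogenesis genes fell, and the difference between days passed with a negative sign for 34 and 26 of them. Of the amino acid genes 13 of 25 fell and 3 rose at day 9. Atf4 was among those that turned, with a day 9 change of 0.28 ± 0.07 (adjusted p = 0.00164), and so was Trib3 with 0.56 ± 0.13 (adjusted p = 0.000533). Some genes were further up at day 9. Plaur changed by 5.35 ± 0.13 there, 2.16 ± 0.17 more than at day 3 (adjusted p = 2.19e-09), and Tsc22d3 by 4.46 ± 0.13, 2.74 ± 0.16 more (adjusted p = 3.42e-11). Mt1 changed less at day 9, by 0.71 ± 0.15, with a difference of -1.41 ± 0.22 (adjusted p = 1.9e-05), and Id2 by 0.83 ± 0.11, with a difference of -0.88 ± 0.17 (adjusted p = 0.000142).

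**Figure D5:**
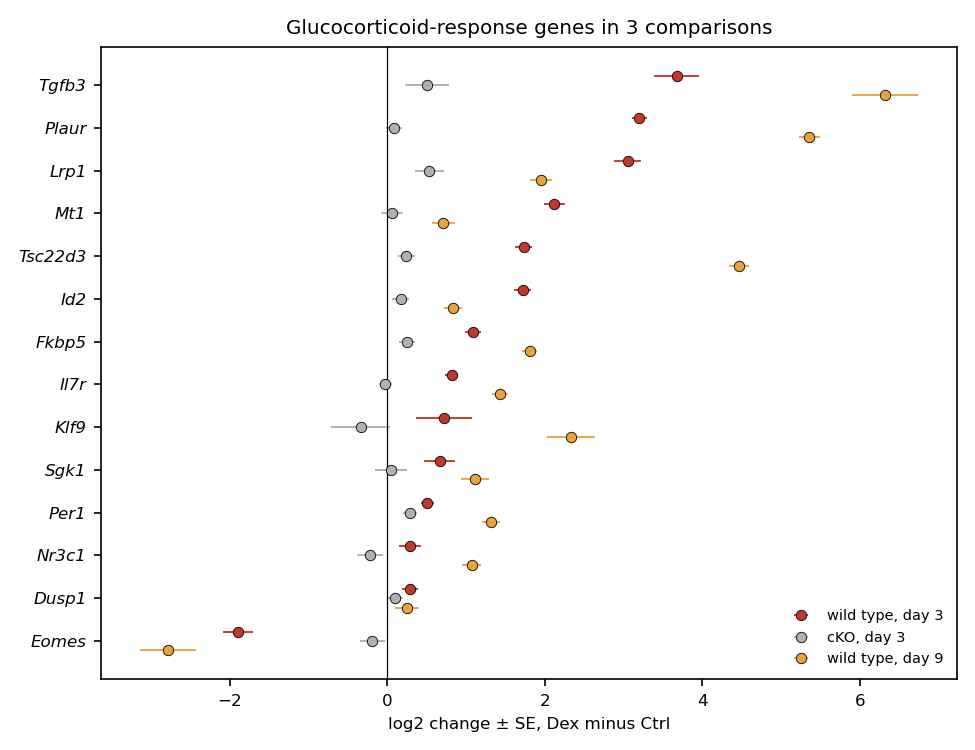
Log2 change ± SE with Dex of 14 genes in WT cells at day 3 (red), cKO cells at day 3 (grey) and WT cells at day 9 (yellow); the day 9 values come from the fit of all 24 libraries. Plaur changed by 3.20 at day 3, 0.08 in cKO cells and 5.35 at day 9, whereas Mt1 changed by 2.12 at day 3 and 0.71 at day 9.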

How the data were processed

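RNA from 24 mouse CD8 T cell libraries in 8 groups of 3 was sequenced as paired 38 nt reads from a modified SMART-Seq2 preparation that used 11 cycles of amplification, per the labels' protocols. The authors deposited 1 table of RSEM expected counts and 1 of FPKM (fragments scaled by gene length and library size) for 23366 genes. TopHat, RSEM, DESeq and mm9 are named, without versions, per the submitters' processing notes. How overlapping genes and strand were handled is not given in the sources used here, so reads of overlapping or near-identical genes may be split.

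Deposited expected counts were rounded and genes kept by filterByExpr (minimum count 10, minimum total 15). The 12 day 3 libraries were fitted with edgeR 4.0.16 (TMM, quasi-likelihood F-test, Benjamini-Hochberg over all genes, threshold 0.05), with 1 mean per group. The genotype difference is a contrast in that fit. Day 9 values and the day difference come from a fit of all 24 libraries and 12666 genes. The SE is the log2 change divided by the square root of F. The WT day 3 test was also run on counts simulated from its own model with planted changes. That run cannot check the model against the spread of the real libraries. WT totals ran from 14221883 to 16387150, and intervals cover counting error only.

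Alternatives used DESeq2 1.42.0, limma 3.58.1 on log2(FPKM + 1) and log2(FPKM + 0.1) from the deposited FPKM (minimum 1 FPKM), other scalings, no filter, a replicate block, other library sets, and each library left out. Named genes are 16 fixed genes, up to 4 called members with the lowest p per list (1 for cytokines and checkpoints), and the 15 largest called rises and falls with at least 10 CPM in a group and groups that do not overlap. The members and the 39 lists were chosen with earlier results of these data known. The amino acid genes beyond that rule and their promoter motif were chosen after their values were seen, as were Slc39a8, Tgfbr2, Dusp4, Spry2 and Fbl where they complete a count. Libraries with IL-27 entered only the 24-library fit. Some genes that the rule names are not reported here.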

Additional observations from a re-analysis of the deposited data

Results flagged for a closer look

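These results of the fixed genes were singled out because the test of a difference between 2 genotypes or 2 days passed. Between genotypes at day 3, the WT change exceeded the cKO change on the log2 scale by 1.49 for Tsc22d3, 0.84 for Fkbp5, 2.06 for Mt1 and 0.84 for Il7r. It exceeded it by 3.12 for Plaur, 2.52 for Lrp1, 3.17 for Tgfb3 and 1.55 for Id2, and for Eomes the difference was -1.71. The fitted difference of 7.78 for Gzma depends on the prior count because its Ctrl counts are near 0, and it did not pass with all 24 libraries in 1 fit (adjusted p = 0.189) or without cKO Ctrl replicate 6 (0.0553).

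Between days in WT cells, the day 9 change minus the day 3 change was 0.79 for Nr3c1, 2.74 for Tsc22d3, 0.73 for Fkbp5, 0.82 for Per1, 1.62 for Klf9 and 0.62 for Il7r. It was 2.16 for Plaur and 2.65 for Tgfb3. It was negative for Mt1 at -1.41, for Lrp1 at -1.09 and for Id2 at -0.88, but for Lrp1 it was 0.14 on the log2(FPKM + 1) scale. Day 9 cells had been rested in IL-2 and restimulated, and the part of that in the differences was not tested. No group had over 3 libraries, so single libraries were not tested as outliers.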

How the results depend on the processing

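The count of genes changed in WT cells at day 3 lay between 691 and 1013 with 1 library left out and between 836 and 1535 under the other alternatives, against 1129. In cKO cells the count of 0 became 26 without the low-count filter and 1 with only the groups compared, and 0 to 1 with 1 library left out (1 without Ctrl replicate 5). The genotype difference called 353 genes, 765 without the filter, 556 by DESeq2, 185 by limma on unfiltered log2(FPKM + 1), 213 with all 24 libraries in 1 fit, and 224 to 479 with 1 library left out, the lowest without WT Dex replicate 3 (224) and WT Ctrl replicate 2 (235). Scaled by library totals, its split moved from 188 positive and 165 negative to 173 and 214. With 1 library left out, day 9 counts lay between 6520 and 6730 and those of the day difference between 4524 and 4760. Of 160 called results of single genes 113 kept their call under every alternative run and 47 lost it in at least 1. Over all 181, called or not, 4 changed sign in at least 1. Slc7a6, at 0.00, was -0.0016 with DESeq2 size factors, -0.0243 by library totals, -0.0015 by DESeq2, -0.0128 on log2(FPKM + 1) with and without the filter, -0.0133 on log2(FPKM + 0.1), -0.0031 with all 24 libraries, and between -0.0280 and -0.0040 without Ctrl replicates 2 or 3 (-0.0116) or Dex replicate 1, with 0.0281 as the highest value. The day difference of Dusp1, -0.03, lay between -0.163 and 0.0859 with 1 library left out and became 0.0106 without WT Dex day 3 replicate 1, 0.0414 without WT Ctrl day 9 replicate 2 and 0.0859 without WT Dex day 9 replicate 1. On log2(FPKM + 1), with and without the filter, that of Lrp1 went from -1.09 to 0.1387 and that of Gzma from -4.16 to 0.8832. The causes were not tested, except that fewer libraries or more genes enter some fits by construction.

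Same-numbered WT day 3 libraries did not deviate together (r = -0.023, -0.0362 and -0.0045). For cKO libraries r was 0.0615, 0.0083 and 0.1005. Taken from means of 3 libraries, these values cannot tell whether same-numbered libraries share a mouse or culture. With the replicate block 1347 genes were called in WT cells, 1 in cKO cells and 526 for the genotype difference.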

Other observations

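Of the 1129 genes called at day 3, 151 changed in the opposite direction at day 9. These were 55 of the 590 risers (9.32%) and 96 of the 539 fallers (17.8%). Both shares were below those of all genes of the day 3 fit, of which 27.2% fell and 30.8% rose at day 9. Dapk2, a death-associated kinase, fell by 0.89 at day 3 and rose by 2.63 on the log2 scale at day 9. The day 3 fall of Dapk2 did not pass with all 24 libraries in 1 fit (adjusted p = 0.0777). At day 9 Dapk2 had 1.73 ± 0.28 CPM (mean ± SD) in Ctrl and 10.7 ± 6.46 in Dex. Ddit3, which encodes the stress factor CHOP and overlaps Mars on the opposite strand, fell by 0.31 and rose by 1.82. Its day 3 fall did not pass without Ctrl replicate 2 (adjusted p = 0.0896), Dex replicate 1 (0.104) or Dex replicate 2 (0.0521). Both were chosen after their values were seen.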
